A study of Mus musculus with 2 samples.

Results

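The 8 genes of the mouse Gimap family in the count tables (Gimap1, Gimap3, Gimap4, Gimap5, Gimap6, Gimap7, Gimap8 and Gimap9) were taken by name from the 32285 genes listed. They were chosen with measured values of these same libraries in view, so the levels below are a description and carry no test. The study set colon tumor (labelled TIL, 1 library) against normal colon tissue (labelled IEL, 1 library), both described as γδ T lymphocytes and taken from C57BL/6J mice of 18 to 20 weeks of age. Transcript 3′ ends were counted in single droplets as unique molecular identifiers (UMIs), each standing for 1 captured molecule. Tissue was digested and cells were collected between the 40% and 70% layers of a Percoll gradient. The protocol text is the same for both samples and names tumor tissue, and it gives neither a sort or gate nor the number of animals. With 1 library per tissue there is no replicate check, and every difference is between these 2 libraries. The 95% intervals in brackets reflect counting error alone and take each UMI or cell as independent of the others.

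GIMAP proteins (GTPases of the immunity-associated protein family) are small GTPases related to septins and found mainly in lymphocytes. Their genes lie side by side, and rodents lacking Gimap5 lose most of their peripheral T cells, so the family is known for keeping resting lymphocytes alive. Members are membrane-bound or cytosolic, and several have been reported to bind proteins of the BCL2 family, which control mitochondrial cell death. The 3 markers used to sort cells into classes have well-known associations: Cd163l1 encodes a scavenger receptor of IL-17-producing γδ T cells, Ccl5 a chemokine of cytotoxic and memory T cells, and Ccr7 a chemokine receptor that guides T cells to lymph nodes.

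The family occupies 123.6 kb of chromosome 6 (GRCm38, bases 48647234 to 48770851, GENCODE M21) in the order Gimap8, Gimap9, Gimap4, Gimap6, Gimap7, Gimap1, Gimap5 and Gimap3, with Gimap6 and Gimap3 on the minus strand. The 250 bases before the RefSeq start of 4 members are shown (GRCm38.p6). Gimap7 and Gimap4 had the lowest TIL over IEL ratios and Gimap5 the ratio nearest to 1, while Gimap6 had like levels in the Ccr7 and Ccl5 classes of tumor cells. Capitals mark every match, on either strand, to the 7 motifs searched.

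Gimap7, chr6:48718371-48718620, plus strand: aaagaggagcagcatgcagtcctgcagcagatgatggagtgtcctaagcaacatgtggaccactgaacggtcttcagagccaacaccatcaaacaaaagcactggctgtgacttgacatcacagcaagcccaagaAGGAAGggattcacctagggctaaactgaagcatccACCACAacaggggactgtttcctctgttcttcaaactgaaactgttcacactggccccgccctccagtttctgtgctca

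Gimap4, chr6:48684328-48684577, plus strand: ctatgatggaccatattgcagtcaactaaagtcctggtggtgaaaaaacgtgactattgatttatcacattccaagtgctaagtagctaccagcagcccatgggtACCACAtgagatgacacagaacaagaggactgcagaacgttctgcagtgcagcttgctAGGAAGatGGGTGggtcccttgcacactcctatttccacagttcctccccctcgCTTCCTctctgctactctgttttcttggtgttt

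Gimap6, chr6:48708245-48708494, minus strand: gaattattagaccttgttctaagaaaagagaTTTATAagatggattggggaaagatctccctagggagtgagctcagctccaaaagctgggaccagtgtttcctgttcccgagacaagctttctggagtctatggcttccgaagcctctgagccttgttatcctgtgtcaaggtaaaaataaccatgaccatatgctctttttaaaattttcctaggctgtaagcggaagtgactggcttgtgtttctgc

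Gimap5, chr6:48745947-48746196, plus strand: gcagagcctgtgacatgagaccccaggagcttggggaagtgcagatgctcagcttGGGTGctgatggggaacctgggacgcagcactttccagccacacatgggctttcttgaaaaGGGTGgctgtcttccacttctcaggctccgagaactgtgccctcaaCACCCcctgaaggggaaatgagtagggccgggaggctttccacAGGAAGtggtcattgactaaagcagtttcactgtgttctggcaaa

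The ETS core AGGAAG was found before 7 of the 8 members, all but Gimap6, and is held by 29.6% of the 32536 RefSeq mouse promoters of this length. The RUNX letters TGTGGT were found before 3 members, Gimap1, Gimap4 and Gimap7, and are held by 14.0% of promoters. CACCC, a KLF core, stood before 5 members and 52.1% of promoters. The T-box letters GGTGTGA (3.33% of promoters) were found only before Gimap8, the FOXO letters GTAAACA (3.17%) only before Gimap3, and TATAAA (12.3%) only before Gimap6, among the 8 members. The ROR letters AGGTCA, held by 14.0% of promoters, were found before 0 of 8. No motif of the 7 contains another, 9 start sites were read for the 8 members because Gimap8 has 2, and a match describes letters, not binding.

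T cells were the droplets with a UMI of Cd3d, Cd3e or Cd3g and at most 0.5% of UMIs from 38 markers of 7 other cell types. This left 12107 TIL cells of 12407 that passed the cell filter (median 6466 UMIs and 2222 genes per cell) and 9109 IEL cells of 9128 (median 6861 UMIs and 2421 genes). A Trdc UMI, of the δ receptor chain, was present in 98.8% of TIL and 96.8% of IEL cells, and a Trac UMI, of the α chain, in 38.1% of TIL and 77.9% of IEL cells. A γ or δ constant UMI without Trac was found in 61.7% of TIL and 22.0% of IEL cells. Trac without Trdc was found in only 54 TIL and 184 IEL cells. Most IEL cells thus carried both transcripts, and a Trac UMI alone does not settle the type of a cell. Markers of other cells left in these T cells summed to 87.7 CPM in TIL and 0.189 CPM in IEL for erythroid genes (4 markers), 58.1 CPM in TIL and 7.21 CPM in IEL for myeloid genes (11 markers, of which S100a8, S100a9 and Adgre1 were at 0 in IEL), and 53.3 CPM in TIL and 8.64 CPM in IEL for endothelial genes (3 markers, Cdh5 at 0 in IEL). Epithelial genes (7 markers) summed to 18.7 CPM in TIL and 80.5 CPM in IEL, B and plasma cell genes (6 markers) to 22.6 CPM in TIL and 22.4 CPM in IEL, fibroblast genes (4 markers) to 2.80 CPM in TIL and 0.801 CPM in IEL, and mast cell genes (3 markers, Mcpt1 and Mcpt2 at 0 in IEL) to 1.05 CPM in TIL and 0.452 CPM in IEL. Their part in the results was not tested. The libraries shared 33 cell barcodes.

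In the T cells as a whole, the summed Gimap genes had 812 UMIs per 1000000 UMIs (CPM) in TIL (806 to 818) and 2862 CPM in IEL (2849 to 2875), a log2 ratio of -1.82 (-1.83 to -1.81). To be called lower or higher, a gene needed 20 CPM or more in one of the groups, a difference of at least 2-fold and an interval that left out a ratio of 1. By this rule 7 of the 8 members were lower in TIL and 0 were higher, where 13.6% of the 6320 genes measured were lower and 10.9% higher. The median log2 ratio of the members was -1.62, against -0.09 over all genes measured. The members were chosen on this contrast, so the count is given without a reading.

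Gimap7, which in humans stimulates the GTPase activity of a related GIMAP protein, had 25.8 CPM in TIL and 314 CPM in IEL, a log2 ratio of -3.60 (-3.67 to -3.54). Gimap4, linked to T cell apoptosis, had 82.8 CPM in TIL and 601 CPM in IEL (log2 ratio -2.86, -2.90 to -2.82). These were the lowest ratios of the family: the IEL level was 12.2 times the TIL level for Gimap7 and 7.26 times for Gimap4.

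Gimap1, required for the survival of mature mouse T and B cells, had 139.9 CPM in TIL and 454 CPM in IEL (log2 ratio -1.70). Gimap6, which binds an autophagy protein of the GABARAP group, had 169 CPM in TIL and 538 CPM in IEL (log2 ratio -1.67). Gimap3, which affects the segregation of mitochondrial DNA in mice, had 169 CPM in TIL and 501 CPM in IEL (log2 ratio -1.56). These 3 members lay close together, between the pair above and the rest of the family.

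Gimap9 had 51.7 CPM in TIL and 131 CPM in IEL (log2 ratio -1.34). Gimap8, which carries several GTPase domains in 1 protein, had 51.1 CPM in TIL and 113 CPM in IEL (log2 ratio -1.15). Gimap5, the member whose loss depletes peripheral T cells, had 122 CPM in TIL and 209.8 CPM in IEL. Its log2 ratio of -0.78 (-0.82 to -0.75) was the only one of the 8 within 2-fold.

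**Figure D1:**
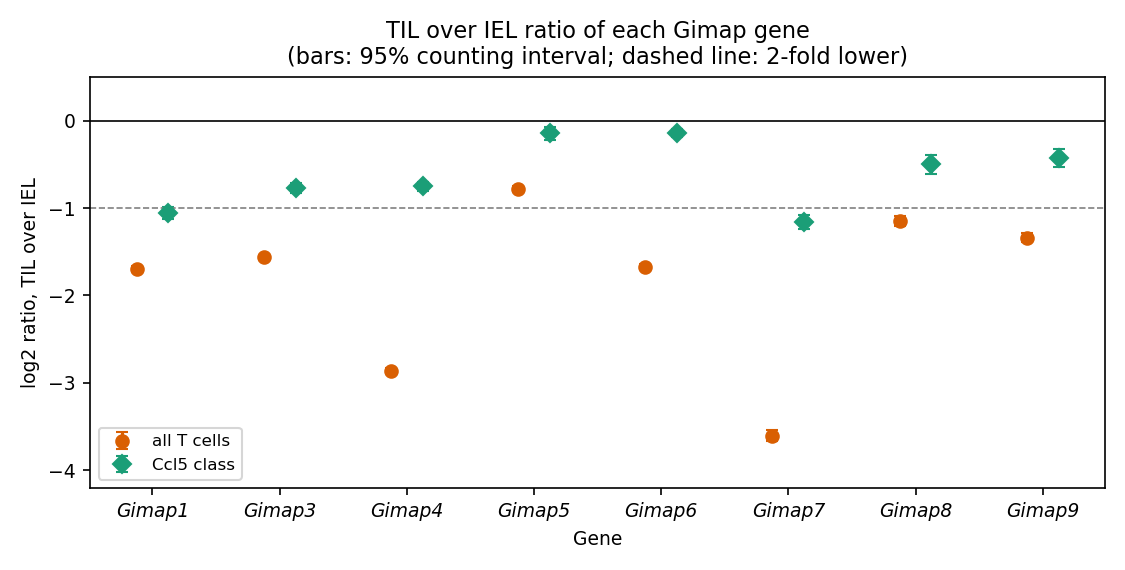
The log2 ratio of TIL over IEL (vertical axis) for each Gimap gene (horizontal axis), in all T cells (circles) and in cells of the Ccl5 class (diamonds), with 95% counting intervals and a dashed line at 2-fold lower. In all T cells the ratios run from -3.60 for Gimap7 to -0.78 for Gimap5, and in the Ccl5 class only Gimap7 (-1.16) and Gimap1 (-1.06) lie below the dashed line.

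Cells were then classed by the 3 markers, a class needing at least 2 UMIs of exactly 1 marker and at most 1 UMI of each of the others. Tumor T cells gave 348 cells of the Ccr7 class, 1390 of the Ccl5 class and 6248 of the Cd163l1 class, with 2160 unmarked and 1961 mixed cells. Normal colon T cells gave 8967 cells of the Ccl5 class, 117 mixed and 17 unmarked cells, and only 3 of the Ccr7 class and 5 of the Cd163l1 class, which carried 34 and 31 Gimap UMIs in all and are not described further as classes. Nearly all IEL cells had Ccl5 UMIs, so IEL cells with Ccr7 or Cd163l1 fell mostly in the mixed group. Median UMIs per cell were 5424, 5765 and 6418 in the TIL Ccr7, Ccl5 and Cd163l1 classes and 6858 in the IEL Ccl5 class. The comparison of whole libraries therefore set mostly Cd163l1-class cells of the tumor against mostly Ccl5-class cells of normal colon.

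The family sum was 1441 CPM in the TIL Ccr7 class (1392 to 1491), 1870.0 CPM in the TIL Ccl5 class (1842 to 1899), 591 CPM in the TIL Cd163l1 class (584 to 598) and 2872 CPM in the IEL Ccl5 class (2860 to 2885). Unmarked TIL cells had 743 CPM and mixed TIL cells, which had a median of 8988 UMIs, had 816 CPM. None of the intervals of the 4 classes overlapped.

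**Figure D2:**
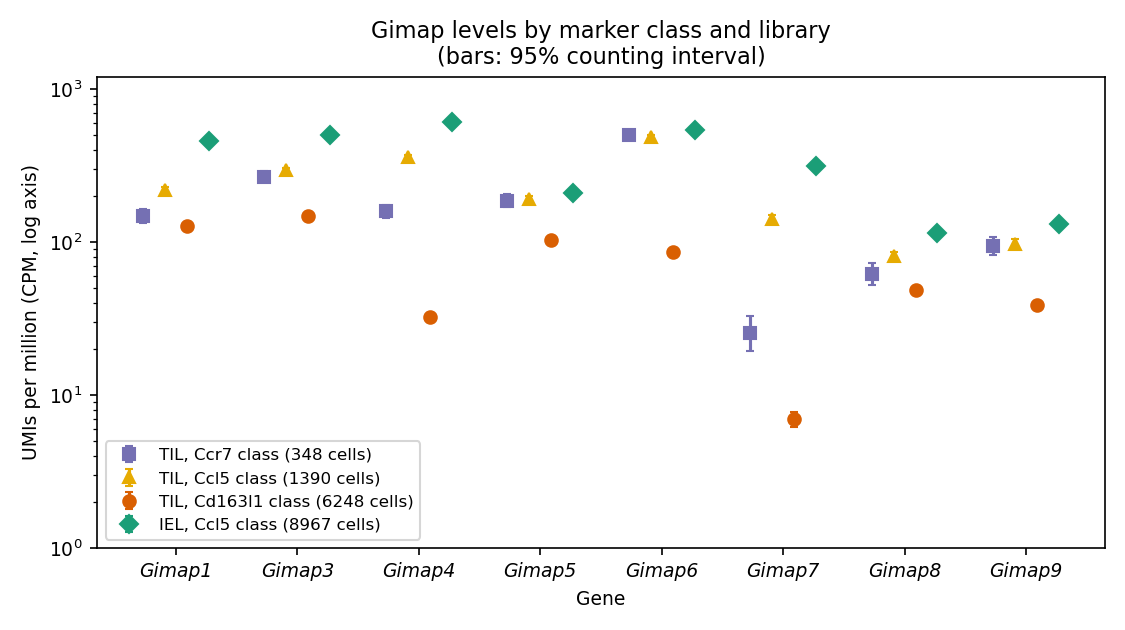
CPM of each Gimap gene (log axis) in the Ccr7, Ccl5 and Cd163l1 classes of TIL cells and in the Ccl5 class of IEL cells, with 95% counting intervals. For Gimap4, Gimap6, Gimap7 and Gimap9 the TIL Cd163l1 class lies far below the TIL Ccl5 class (Gimap7 at 142 CPM in the Ccl5 and 6.93 CPM in the Cd163l1 class), while Gimap5 and Gimap6 lie close together in the TIL and IEL Ccl5 classes.

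Between the Ccl5 classes of both libraries the difference was smaller than between whole libraries. The family had a log2 ratio of -0.62 (-0.64 to -0.60), TIL over IEL, and 2 of the 8 members were lower, with 5.45% of the 6127 genes measured lower and 4.15% higher. The members' median was -0.63, against -0.08 over all genes measured. Gimap7 had 142 CPM in the TIL and 316 CPM in the IEL Ccl5 class (log2 ratio -1.16, -1.24 to -1.07). Gimap1 had 219 CPM in the TIL and 456 CPM in the IEL class (log2 ratio -1.06, -1.12 to -0.99), on the edge of the 2-fold rule.

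Of the members within 2-fold, Gimap3 (294 CPM in TIL, 503 CPM in IEL) and Gimap4 (358 CPM in TIL, 604 CPM in IEL) had log2 ratios of -0.77 and -0.75. Gimap8 had 80.4 CPM in the TIL and 114 CPM in the IEL class, and Gimap9 had 97.5 CPM in the TIL and 131 CPM in the IEL class (log2 ratios -0.50 and -0.43). Gimap5 and Gimap6 were nearly level: Gimap5 had 190.1 CPM in the TIL and 210.0 CPM in the IEL class (log2 ratio -0.14, -0.22 to -0.07), and Gimap6 488 CPM in the TIL and 539 CPM in the IEL class (log2 ratio -0.14, -0.19 to -0.10). The intervals of all 8 ratios lay below 0, so each member was lower in the TIL class within counting error, most by less than 2-fold.

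These calls depended on how strictly the class was drawn. When at least 20 Ccl5 UMIs were required (924 TIL and 8267 IEL cells, a limit chosen after the data were seen), 0 of the 8 members were called lower, the family log2 ratio was -0.46 and that of Gimap6 was 0.025 (-0.03 to 0.08). The share over all genes was not computed at this limit, so the count is given without a reading. Among Ccl5-class cells with a γ or δ constant UMI and no Trac (689 TIL and 1937 IEL cells), the family had 1877 CPM in TIL and 3027 CPM in IEL (log2 ratio -0.69). There 1 member was called lower, Gimap7 with 116 CPM in TIL and 310.1 CPM in IEL (log2 ratio -1.42), where 6.86% of the 6166 genes measured were lower and 4.8% higher, and their median log2 ratio was -0.11. IEL Ccl5-class cells with Trac and no Trdc (181 cells) had 2619 CPM of the family (2523 to 2718), below the 3027 CPM of the γδ receptor cells in the same class. In TIL the direction was opposite, from few cells. There 12 such Ccl5-class cells had 2327 CPM (1921 to 2793), above the 1877 CPM of the γδ receptor cells. Over all TIL T cells, 54 such cells had 1784 CPM (1624 to 1957) and γδ receptor cells 809 CPM.

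Within the tumor library the 3 classes share 1 preparation. The Ccr7 class over the Cd163l1 class gave 4 of 8 members higher and 0 lower, where 4.49% of the 5742 genes measured were higher and 6.2% lower, with a family log2 ratio of 1.29 (1.23 to 1.34) and a members' median of 1.07 against -0.09 over all genes. Gimap6 had 499 CPM in the Ccr7 class and 86.4 CPM in the Cd163l1 class (log2 ratio 2.53, 2.43 to 2.63). Gimap4 had 158 CPM in the Ccr7 class and 32.4 CPM in the Cd163l1 class (log2 ratio 2.29). Gimap7 had 25.4 CPM in the Ccr7 class, from 58 UMIs, and 6.93 CPM in the Cd163l1 class. The second value lay under 8.41 CPM, the limit that 0 Gimap7 UMIs allow (3 counts over the group) in 56 tumor droplets with myeloid markers and no Cd3 UMI, which serve as background. The Ccr7 class value was 3.02 times that limit (log2 1.60), a figure that leaves out its own counting interval (19.3 to 32.9 CPM). In this contrast Gimap7 reached 20 CPM only in the Ccr7 class.

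Gimap9 was the fourth of these, with 94.3 CPM in the Ccr7 class and 39.0 CPM in the Cd163l1 class (log2 ratio 1.27). The other 4 members lay within 2-fold: Gimap5 (186 CPM in the Ccr7 and 103 CPM in the Cd163l1 class, log2 ratio 0.86), Gimap3 (267 CPM in the Ccr7 and 148 CPM in the Cd163l1 class, log2 ratio 0.85), Gimap8 (61.8 CPM in the Ccr7 and 48.6 CPM in the Cd163l1 class, log2 ratio 0.35) and Gimap1 (148 CPM in the Ccr7 and 127 CPM in the Cd163l1 class, log2 ratio 0.22). Gimap1, lower by 1.70 on the log2 scale between whole libraries, was thus nearly level between these tumor classes.

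The Ccl5 class over the Cd163l1 class also gave 4 of 8 members higher and 0 lower, where 6.47% of the 5886 genes measured were higher and 7.65% lower, with a family log2 ratio of 1.66 (1.63 to 1.69) and a members' median of 1.16 against -0.03 over all genes. Gimap7 had 142 CPM in the Ccl5 class, 16.8 times the background limit (log2 4.07), and 6.93 CPM in the Cd163l1 class, and it passed the 20 CPM floor only through the Ccl5 class. Gimap4 had 358 CPM in the Ccl5 class and 32.4 CPM in the Cd163l1 class (log2 ratio 3.47, 3.38 to 3.55), or 11.0-fold. Gimap6 and Gimap9 had log2 ratios of 2.50 and 1.32, and Gimap3 stood just inside 2-fold at 0.99 (0.93 to 1.06).

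The Ccr7 class over the Ccl5 class of tumor cells separated the members that the other contrasts put together. Gimap7, at 25.4 CPM in the Ccr7 class and 142 CPM in the Ccl5 class, was lower by a log2 ratio of -2.48 (-2.88 to -2.10), and Gimap4, at 158 CPM in the Ccr7 class and 358 CPM in the Ccl5 class, by -1.18 (-1.34 to -1.02). Gimap4 was within 2-fold as a mean over cells (-0.85), with 1 UMI of a marker (-0.77) and with thinned markers (-0.79). Gimap6 had 499 CPM in the Ccr7 class and 488 CPM in the Ccl5 class (log2 ratio 0.03, -0.06 to 0.13), Gimap5 had a log2 ratio of -0.03 (-0.19 to 0.13) and Gimap9 of -0.05 (-0.27 to 0.17). Of the 8 members 2 were lower and 0 higher, where 6.11% of the 5822 genes measured were lower and 3.76% higher, and the family log2 ratio was -0.38 (-0.43 to -0.32). These within-tumor contrasts share classes, so they are not independent of one another.

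Set against the IEL Ccl5 class, the TIL Cd163l1 class was lower for 8 of 8 members, where 15.4% of the 6360 genes measured were lower and 12.4% higher, with a members' median log2 ratio of -1.81. These are the largest classes of the 2 libraries, so the contrast is close to the whole-library one on which the members were chosen. The count is therefore given without a reading. Gimap7 passed the 20 CPM floor only through the IEL class. The IEL level of Gimap7 was 37.5 times the background limit of 8.41 CPM, under which the TIL Cd163l1 class lay. That limit comes from TIL droplets alone. IEL gave 0 such myeloid droplets, so the limit does not measure the background of IEL. Gimap4 had a log2 ratio of -4.22 (-4.29 to -4.14) and Gimap6 of -2.64, while Gimap5 had the smallest at -1.03. The make-up of the family differed accordingly. Of all Gimap UMIs, Gimap4 supplied 5.49% in the TIL Cd163l1 class and 21.02% in the IEL Ccl5 class, and Gimap7 supplied 1.17% in the TIL Cd163l1 class and 11.0% in the IEL Ccl5 class. Gimap5 supplied 17.4% in the TIL Cd163l1 class and 7.31% in the IEL Ccl5 class.

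Shares of cells were compared after thinning each cell to 2000 UMIs, which left 12031 TIL cells, without 76 shallower ones, and 9044 IEL cells, without 65 shallower ones. At least 1 Gimap UMI was found in 69.3% of TIL cells (68.5 to 70.1) and 98.9% of IEL cells (98.6 to 99.1), or 93.1% of TIL and 99.989% of IEL cells without thinning. The 56 TIL background droplets, with at least 2% of UMIs from myeloid markers and no Cd3 UMI, carried 9 Gimap UMIs (25.2 CPM). Their median depth was 4985 UMIs. At 2000 UMIs 1 of 47 of them, 2.13% (0.0539 to 11.3), had a Gimap UMI, below the share in TIL T cells. IEL gave 0 such droplets, so its share has no background of its own to be set against.

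By member, Gimap7 was found in 4.63% of TIL cells (4.26 to 5.02) and 43.8% of IEL cells (42.8 to 44.8), and Gimap4 in 12.7% of TIL and 67.5% of IEL cells. Gimap1 was found in 23.8% of TIL and 57.0% of IEL cells, Gimap3 in 28.5% of TIL and 61.1% of IEL cells, and Gimap6 in 24.4% of TIL and 60.9% of IEL cells. Gimap5 was found in 21.1% of TIL and 32.1% of IEL cells, Gimap8 in 9.77% of TIL and 20.3% of IEL cells, and Gimap9 in 9.72% of TIL and 22.5% of IEL cells. Every member was thus detected in fewer TIL than IEL cells at equal depth.

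Within the tumor, Gimap7 was found in 5.23% of Ccr7-class cells (3.13 to 8.14), 24.2% of Ccl5-class cells (22.0 to 26.6) and 1.25% of Cd163l1-class cells (0.992 to 1.56), against 44.1% of IEL Ccl5-class cells (43.1 to 45.2). In the myeloid background 0 of 47 droplets had Gimap7 or Gimap4, which allows a share of up to 6.38% by 3 counts and 7.55% by the exact interval. The Gimap7 shares of the TIL Ccr7 and Cd163l1 classes and of all TIL cells lay under both limits. So did the Gimap4 share of the TIL Cd163l1 class (5.45%). With only 47 droplets the limits are wide, so these shares alone are not read as expression or as its absence. In CPM, which uses every UMI, Gimap4 in the TIL Cd163l1 class (32.4 CPM) stood above the 2.80 CPM (0.0710 to 15.6) of the background. Gimap7 stood above its limit of 8.41 CPM in all TIL cells (25.8 CPM, 24.8 to 26.9) and in the TIL Ccr7 class (25.4 CPM, 19.3 to 32.9). In the TIL Cd163l1 class (6.93 CPM) it lay under that limit. Gimap6 was found in 53.5% of Ccr7-class cells (48.1 to 58.9), 58.1% of Ccl5-class cells (55.5 to 60.7) and 14.8% of Cd163l1-class cells (14.0 to 15.7) of the tumor, against 61.1% of IEL Ccl5-class cells (60.1 to 62.1).

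The number of different Gimap genes detected per cell at 2000 UMIs averaged 2.18 in the TIL Ccr7 class, 2.74 in the TIL Ccl5 class, 1.02 in the TIL Cd163l1 class and 3.67 in the IEL Ccl5 class. No Gimap gene was detected in 17.4%, 7.91% and 36.5% of cells of the TIL Ccr7, Ccl5 and Cd163l1 classes and in 1.08% of the IEL Ccl5 class. At least 4 were detected in 21.5%, 31.5% and 1.99% of cells of the TIL Ccr7, Ccl5 and Cd163l1 classes and in 54.5% of the IEL Ccl5 class. Across single cells of a class, the correlation of thinned counts between pairs of members was weak (28 pairs, median r of 0.08 in the TIL Ccr7 class, 0.06 in the TIL Ccl5 class, 0.04 in the TIL Cd163l1 class and 0.04 in the IEL Ccl5 class). The highest r of any pair was 0.23, in the TIL Ccr7 class. In counts this sparse a weak correlation is no finding.

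**Figure D3:**
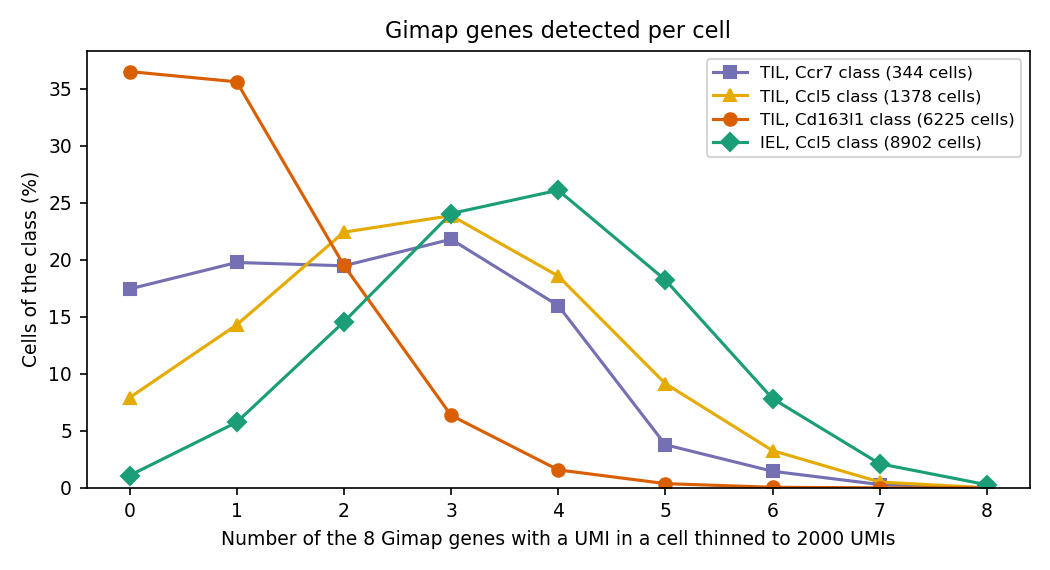
Share of cells (vertical axis, %) by the number of the 8 Gimap genes with a UMI in a cell thinned to 2000 UMIs (horizontal axis), for the Ccr7, Ccl5 and Cd163l1 classes of TIL cells and the Ccl5 class of IEL cells. The TIL Cd163l1 curve peaks at 0 genes (36.5% of cells), the IEL Ccl5 curve at 4 genes (26.1%), and the TIL Ccr7 and Ccl5 curves at 3 genes (21.8% and 23.9%).

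The level was also followed along each marker at equal depth, with no class boundaries. In TIL cells with 0, 1, 2 and 3 or more thinned Ccl5 UMIs, the family sum was 700.2, 799, 978 and 1882 CPM (8852, 1199, 301 and 1679 cells). In IEL cells it was 2780, 2930, 2983 and 2908 CPM, with 93, 150 and 117 cells in the lower groups and 8684 in the highest. The level thus went up with Ccl5 in the tumor library at equal depth, while in unthinned data TIL cells with 1 Ccl5 UMI had 624 CPM (612 to 637), below the 668 CPM (661 to 675) of those with 0. IEL cells with no thinned Ccl5 UMI (2545 to 3030) stood above every TIL group, but most of them had Ccl5 UMIs before thinning. Only 10 IEL cells had none in unthinned data, and their 1984 CPM (1623 to 2402) overlapped the 1679 CPM (1655 to 1704) of TIL cells with 20 or more.

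Along Ccr7, TIL cells with 0, 1, 2 and 3 or more thinned UMIs had 834, 1461, 1769 and 1627 CPM of the family (11230, 485, 182 and 134 cells). The interval at 3 or more UMIs (1478 to 1787) overlapped those at 1 UMI (1386 to 1539) and 2 UMIs (1635 to 1911), which did not overlap each other. In unthinned data, however, the 21 TIL cells with at least 20 Ccr7 UMIs, whose median depth was 13527 UMIs, had only 467 CPM (392 to 552), so the highest Ccr7 counts did not go with the highest Gimap level. Along Cd163l1, TIL cells had 1195, 652, 643 and 634 CPM at 0, 1, 2 and 3 or more thinned UMIs (5201, 2756, 1836 and 2238 cells). At equal depth the step lay between 0 and 1 UMI, and the groups with Cd163l1 had overlapping intervals. In unthinned data the family had 1488, 813, 630, 630 and 577 CPM at 0, 1, 2 to 4, 5 to 19 and 20 or more Cd163l1 UMIs, where the groups with 1 UMI (794 to 831) and with 20 or more (548 to 606) did not overlap those between. Unthinned IEL cells had 2873, 2601, 1867 and 1741 CPM at 0, 1, 2 to 4 and 5 to 19 Cd163l1 UMIs. These groups held 9009, 29, 41 and 30 cells. At 0, 1, 2 to 4 and 5 to 19 Ccr7 UMIs, IEL cells had 2863, 2857, 2922 and 2633 CPM. Those groups held 9006, 47, 40 and 14 cells.

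Cycling cells, with at least 3 UMIs summed over 8 cell-cycle genes, had less of the family. In the TIL Cd163l1 class, 148 cycling cells had 449 CPM (420.4 to 479) and 6100 other cells 598 CPM (590.4 to 605). In the IEL Ccl5 class, 259 cycling cells had 2389 CPM (2335 to 2444) and 8708 other cells 2896 CPM (2883 to 2909). Median depths were 12392 UMIs in cycling and 6368 UMIs in other TIL Cd163l1-class cells, and 10683 UMIs in cycling and 6810.0 UMIs in other IEL Ccl5-class cells. In the TIL Ccl5 class, 37 cycling cells had 1537 CPM (1424 to 1657) and 1353 other cells 1887 CPM (1858 to 1917). Counted per cell without regard to depth, the deeper cycling cells carried more Gimap UMIs in all 3 classes. The sums were 922 UMIs in cycling and 26106 in other TIL Cd163l1-class cells. They were 687 and 16049 in the TIL Ccl5 class, and 7538 and 186092 in the IEL Ccl5 class. Not every member followed the family sum in CPM. Gimap7 was higher in cycling cells of the TIL Ccl5 class, with 204 CPM in cycling (164 to 250.01) and 138 CPM in other cells (131 to 147), and over all TIL T cells it had 37.2 CPM in cycling (31.8 to 43.2) and 25.2 CPM in other cells (24.2 to 26.3). In the IEL Ccl5 class Gimap7 had 307 CPM in cycling (288 to 327) and 316 CPM in other cells (312 to 321). The intervals of Gimap9 overlapped in all 3 classes, and those of Gimap1 and Gimap4 in both TIL classes. In the TIL Ccl5 class Gimap4 had 396 CPM in cycling (339.9 to 459) and 356 CPM in other cells (344 to 369).

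All T cells were clustered together without the Gimap genes and the 3 markers, which gave 22 clusters. Of the groups made by a library within a cluster, 20 had at least 50 cells, 13 of TIL and 7 of IEL, and no cluster reached 50 cells in both libraries. The family sum ran from 427 CPM in TIL cluster 17, led by cell-cycle genes such as Ube2c and Birc5, to 2299 CPM in TIL cluster 11, led by genes that include Ly6c2. In IEL it ran from 2033 CPM in cluster 19, also led by cell-cycle genes, to 3315 CPM in cluster 8, led by Tgm2 and Id3. TIL clusters 11, 15 and 13 thus stood above the lowest IEL group, and the other 10 TIL groups below it. That IEL group, cluster 19, held 96 cells. The next lowest IEL group, cluster 7, had 2643 CPM, above every TIL group.

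Tumor groups rich in the family differed in its make-up. TIL cluster 11, which had 492 CPM of Ccr7, had 884 CPM of Gimap6 but 46.5 CPM of Gimap7, and Gimap4 and Gimap7 made up 15.2% of its Gimap UMIs. TIL cluster 13, led by Gzmc, Gzmk and Cd8a and with 22554 CPM of Ccl5, had 2144 CPM of the family, 461 CPM of Gimap4 and 216 CPM of Gimap7, and there the pair made up 31.6%. TIL cluster 15, led by Tmem158, Gramd3 and Ctla2b, with Klra7 and Kit among its leading genes, had 2222 CPM of the family and 616 CPM of Gimap6. The share from Gimap4 and Gimap7 lay between 4.70% and 31.6% in TIL groups and between 29.5% and 34.5% in IEL groups.

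**Figure D4:**
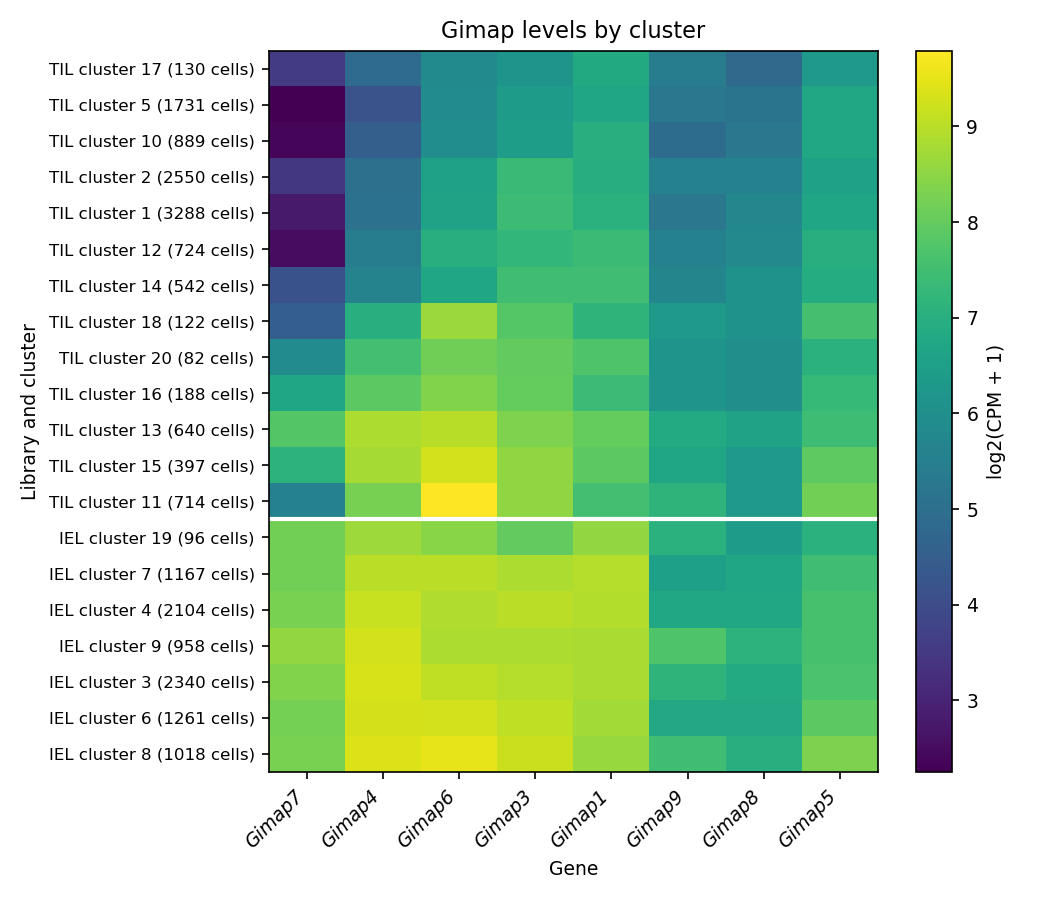
Level of each Gimap gene as log2(CPM + 1) (colour) in the 13 TIL groups (above the white line) and 7 IEL groups (below it), each group being the cells of 1 library in 1 cluster, ordered by the family sum within a library. Gimap7 and Gimap4 (left) are low in most TIL groups and high in TIL cluster 13 and in all 7 IEL groups, while Gimap8 and Gimap5 (right) vary less.

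Across these groups the range of a member differed widely. Gimap7 ran from 3.77 CPM (cluster 5, under the background limit) to 216 CPM (cluster 13) in TIL and from 288 to 376 CPM in IEL. Gimap4 ran from 17.3 to 461 CPM in TIL and from 412 to 671 CPM in IEL, so that for Gimap7 no TIL group reached an IEL group and for Gimap4 only TIL cluster 13 and TIL cluster 15 did. Both passed IEL cluster 19 alone, as the next IEL group, cluster 7, had 510 CPM of Gimap4. Gimap6 ran from 55.6 to 884 CPM in TIL and from 349 to 736 CPM in IEL, its highest group being a TIL one. Gimap5 ran from 77.4 to 290.2 CPM in TIL and from 134 to 317 CPM in IEL, and Gimap8 from 28.0 to 96.1 CPM in TIL and from 82.1 to 138 CPM in IEL.

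Over the 13 TIL groups the log levels of member pairs had r from 0.68 (Gimap5 with Gimap7) to 0.96 (Gimap6 with Gimap9). Over the 7 IEL groups r ran from -0.41 (Gimap1 with Gimap9) to 0.96 (Gimap5 with Gimap6). The IEL groups were fewer and spanned a narrower range of log levels, so the r values of TIL and IEL groups cannot be compared. Groups of a library share its preparation, and these values carry no test. Among the 4439 other genes with at least 50 CPM in a group, the 5 whose log level was most like that of the family over the 20 groups were Ptprc (r = 0.98), Tra2a (0.98), Ikbkb (0.98), Skap1 (0.98) and Frat2 (0.97). Within the 13 TIL groups alone their r lay between 0.95 and 0.98, and within the 7 IEL groups between 0.67 (Ikbkb) and 0.95 (Tra2a).

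Around the family, 27 other annotated genes lay within 300 kb, of which 4 reached 20 CPM in either library. AI854703, left of Gimap8, had 11.6 CPM in TIL and 55.0 CPM in IEL (log2 ratio -2.24). Gimap1os, a noncoding transcript antisense to Gimap1, had 10.5 CPM in TIL and 29.0 CPM in IEL (log2 ratio -1.46). The annotated genes overlap from base 48739054 to base 48741444, at the 5′ part of each, and the 3′ end of each lies outside the other. The genes lie on opposite strands. Whether the counting used strand is not given in the sources used here, and how reads within the overlap were assigned was not checked.

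To the right, Tmem176b had 745 CPM in TIL and 9.31 CPM in IEL (log2 ratio 6.32) and Tmem176a 855 CPM in TIL and 7.17 CPM in IEL (log2 ratio 6.90). These genes encode paired membrane proteins known from type 17 lymphocytes and myeloid cells. Their ratio was opposite to that of the 8 members. Counting errors from look-alike members were limited: of the 90-base windows in the last 500 bases of the annotated transcripts, 0 were shared with another gene for 7 members, and 32 of 1649 (1.94%) were for Gimap1, with Gm28053.

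**Figure D5:**
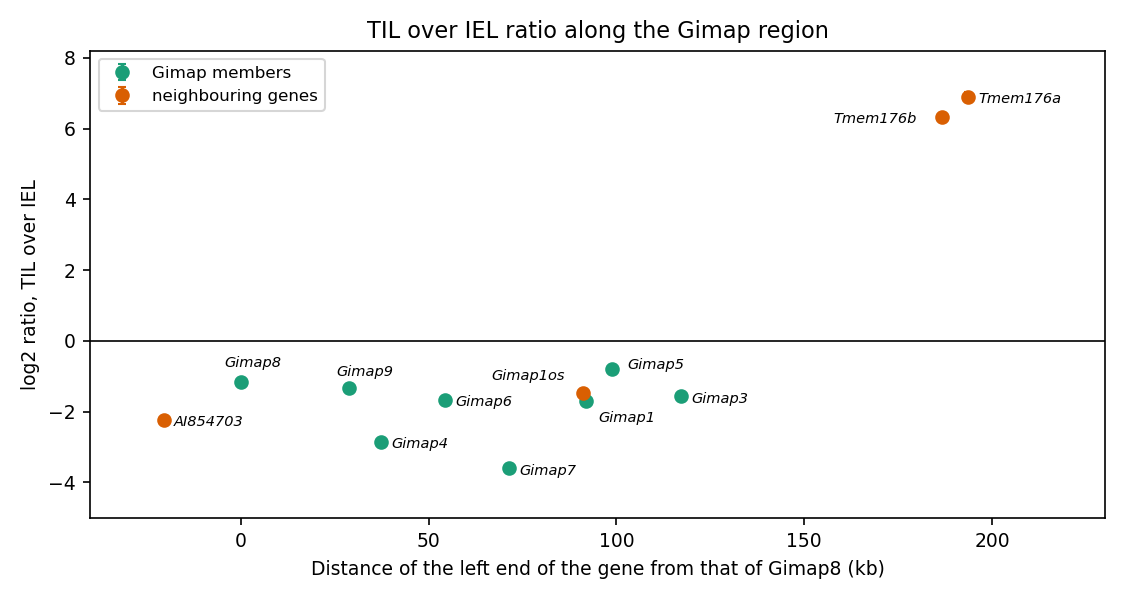
The log2 ratio of TIL over IEL in all T cells (vertical axis) against the distance of a gene's left end from that of Gimap8 in kb (horizontal axis), for the 8 Gimap genes and the 4 neighbours with at least 20 CPM. The counting intervals are smaller than the points. The 8 members lie between -3.60 and -0.78, and Tmem176b and Tmem176a at 6.32 and 6.90.

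Genes of the pathways tied to the family were counted from lists chosen with earlier results of these data known. Of 7 BCL2 family genes, TIL over IEL T cells gave 1 higher, Bcl2l1 (55.8 CPM in TIL and 17.3 CPM in IEL, log2 ratio 1.69), and 1 lower, Bcl2 (71.5 CPM in TIL and 409.5 CPM in IEL, log2 ratio -2.52), with a list median of 0.28. These counts are near the shares over all genes measured, 10.9% higher and 13.6% lower, and say nothing of the list. Both genes encode proteins that oppose mitochondrial cell death. In the Ccl5 classes 0 of the 6 measured were called, where 4.15% of all genes were higher and 5.45% lower, and Bcl2 had 326 CPM in TIL and 411 CPM in IEL (log2 ratio -0.33). In the Ccl5 over the Cd163l1 class of the tumor 2 of the 7 were higher and 1 lower, where 6.47% of all genes were higher and 7.65% lower, with a list median of -0.25. Bcl2 had 326 CPM in the Ccl5 class and 28.9 CPM in the Cd163l1 class (log2 ratio 3.50), beside Bcl2l1 with 22.6 CPM in the Ccl5 class and 64.7 CPM in the Cd163l1 class (log2 ratio -1.52).

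Of 10 genes of IL-7 signalling and T cell quiescence, 8 were measured between whole libraries, 4 higher and 2 lower in TIL, where 10.9% of all genes measured were higher and 13.6% lower, with a list median of 1.30 against -0.09 over all genes. The furthest apart were Il7r, the IL-7 receptor, with 984 CPM in TIL and 53.2 CPM in IEL (log2 ratio 4.21), and Foxo1, a transcription factor of resting T cells, with 178 CPM in TIL and 508 CPM in IEL (log2 ratio -1.52). In the Ccr7 class over the Cd163l1 class of the tumor 8 of the 10 were higher and 0 lower, where 4.49% of all genes measured were higher and 6.2% lower, with a list median of 2.09. Il7r, at 721 CPM in the Ccr7 class and 1173 CPM in the Cd163l1 class, was within 2-fold (log2 ratio -0.70), so the Cd163l1 class combined a low Gimap level with a high Il7r level.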

How the data were processed

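Both libraries were 10x Genomics 3′ v3, per the labels. Per the file headers, the values deposited are UMI counts (whole numbers for a gene in a barcode), without normalization. Cell Ranger 6.1.1 and the mm10 build are named in the submitters' processing notes; the step that separated cells from empty droplets is not given in the sources used here. The matrices held 13245 TIL barcodes (94953893 UMIs) and 9398 IEL barcodes (69414155 UMIs). A cell was kept from 500 genes and 1000 UMIs upward, with mitochondrial UMIs up to 10%.

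Counts were summed over the cells of a group and divided by the group's total to give CPM, with exact Poisson intervals. Ratios carry exact binomial intervals given the total count of both groups, and shares have exact Clopper-Pearson intervals, all at 95%. With 1 library per tissue no p-value was computed. Every gene of the table was treated alike. The ratio step was run on simulated Poisson counts, the model the intervals assume, so that run does not check the intervals on these data. Thinned family counts per cell had a variance over mean of 2.68, 1.85 and 1.47 in the TIL Ccr7, Ccl5 and Cd163l1 classes. In the IEL Ccl5 class it was 1.60. Each is above the 1 of Poisson counts. No doublet caller was run; cells with 2 UMIs of more than 1 marker were set apart as mixed. Clustering used 2000 variable genes, 30 components, 15 neighbours and Leiden resolution 1.0 (igraph 0.11.9, scikit-learn 1.9.0), with receptor, ribosomal, mitochondrial, haemoglobin, immunoglobulin and sex-linked genes kept out. Other steps used Python 3.11.15, NumPy 2.4.6, SciPy 1.17.1 and pandas 2.3.3. Promoter sequences are from RefSeq (GRCm38.p6), and all 8 members matched by symbol.

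The members and all lists were chosen with earlier results of these data known. The genes named were the 8 members, the furthest of each pathway list in each direction, every neighbour with at least 20 CPM and the 5 genes most like the family across clusters; other list members given for comparison were picked after their values were seen. Alternatives covered the cell filter, the cells used, the marker class, the scaling, the thinning, free RNA, the level floor and the clustering. Values of single genes in the marker and pathway lists that are not named in the text are not reported here.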

Additional observations from a re-analysis of the deposited data

How the results depend on the processing

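Of 392 member ratios under alternatives, 259 stayed within the counting interval and 16 changed sign. For 5 of these 16 the interval of the main ratio left out 0, whatever the interval under the alternative. The others were Gimap5, Gimap6 and Gimap9 in the Ccr7 over the Ccl5 class of the tumor, whose ratios near 0 ran from -0.27 to 0.25, from -0.54 to 0.48 and from -0.44 to 0.24. The family log2 ratio of TIL over IEL T cells, -1.82, was -1.85 with all cell types kept, -1.89 in γδ receptor cells only, -1.72 as a mean over cells and -1.72 with the median gene ratio set to 1. In the Ccl5 classes, -0.62 was -0.64, -0.69, -0.56 and -0.54 under these 4 settings, -0.70 with 5 UMIs of a marker and -0.46 with 20 UMIs of Ccl5. Members called lower there numbered 2, but 1 in γδ receptor cells, 1 with the median gene ratio set to 1 and 0 with 20 UMIs of Ccl5. The 2 members lower in the Ccr7 than the Ccl5 class of the tumor became 1, without Gimap4, as a mean over cells, with 1 UMI of a marker and with thinned markers. Under those 3 settings Gimap3 changed sign there, to 0.12, 0.17 and 0.21. Gimap1 changed sign in the Ccr7 over the Cd163l1 class with 5 UMIs of a marker (-0.20), and Gimap6 between the Ccl5 classes with 20 UMIs of Ccl5 (0.025). The cause was not tested. Between whole libraries 7 or 8 members were lower under every alternative run, 8 of them in γδ receptor cells only. Members higher in the Ccr7 than the Cd163l1 class numbered 3 to 6, and in the Ccl5 than the Cd163l1 class 4 or 5. Among the alternatives, the share over all genes was computed beside the count only for γδ receptor cells of the Ccl5 classes. The other counts are given without a reading. The share of cells with a Gimap UMI follows depth by construction: in TIL it was 48.9%, 86.0% and 93.1% with 1000 UMIs, 4000 UMIs and no thinning, and in IEL 92.3%, 99.9% and 99.989%. The highest over the lowest cluster group, a log2 ratio of 2.96, was 2.85 at resolution 0.5. Single-group values below about 50 cells are limited by counting. No paired analysis was possible because each group had 1 library.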
